A study of Mus musculus with 60 samples.

Results

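Wnt signalling in the hormone-treated mouse mammary gland was described through 10 genes, of 15964 with a probe set of their own on the arrays: the ligands Wnt4, Wnt5a, Wnt5b, Wnt2, Wnt6 and Wnt7b, the Wnt-like ligand Ndp, the secreted inhibitors Sfrp1 and Sfrp2 and the intracellular modulator Dact2. Every probe set whose annotation named exactly 1 of these symbols was taken, which gave 25 probe sets, 8 on array type A, 3 on type B and 14 on type C of the Affymetrix MG-U74 set. Of these, 19 were bright enough to be tested and 6 were dim, and each of the 10 genes had at least 1 tested probe set. The test took probe sets that exceeded the median signal of their array type in 3 or more animals. The dim ones were 1 probe set each of Wnt4 (103238_at), Wnt5a (99390_at), Wnt2 (116748_at), Wnt6 (103735_at), Wnt7b (92404_at) and Ndp (169407_i_at).

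The animals, taken as 20, were ovariectomized mice, which lack the ovary's own hormones, given daily intraperitoneal injections over 4 days. One group of 5 received 2 µg of 17-beta-estrogen together with 1 mg of progesterone (E+P), 4 received the estrogen alone (E), 4 the progesterone alone (P), and 4 received 100 µl of sesame oil (V). Fat pads free of epithelium (E+P CFP) came from 3 animals under both hormones and represent the stroma; whether the E+P group includes these animals is not in the labels, and they were treated as separate. Lymph nodes had been removed from the glands at collection. Strain and age are not in the labels, and the vehicle samples follow their titles and protocols, which give sesame oil, although their descriptions name progesterone. Values are scaled signal intensities, differences are on the log2 scale ± the standard error (SE) from limma, first-named group minus second, and adjusted p-values are Benjamini-Hochberg values over all 23062 tested probe sets. Intensities under a floor (13.6, 28.6 and 19.8 on types A, B and C) were raised to it before log2, so a difference from animals at the floor is a lower bound of its size.

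Wnt proteins are secreted ligands that bind Frizzled receptors. With the coreceptors Lrp5 or Lrp6 they stabilise beta-catenin, which then acts with Tcf and Lef factors on targets such as Axin2, and with Ror2 or Ryk they act without beta-catenin. Secreted Frizzled-related proteins bind Wnts outside the cell, and Dact proteins bind Dishevelled inside it. In the mouse mammary gland, Wnt4 is known as a target of progesterone that drives side-branching, and Wnt5a as a ligand that acts without beta-catenin and limits branching.

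The tissue of the groups was checked with marker genes. All 10 tested luminal epithelial markers were higher in E+P glands than in E+P CFP fat pads, and their summed intensity was 4756 to 7469 in E+P glands against 244 to 274 in the fat pads. The defining markers Krt8, Krt19, Epcam and Cldn7 were at the floor in all 3 fat pads. The luminal score, the mean log2 deviation of the markers from their mean over all animals, was 0.66 to 1.31 in E+P, 0.18 to 0.99 in E, -0.08 to 0.29 in P and 0.31 to 0.53 in V. Skeletal muscle markers scored 2.27 to 3.04 in the fat pads and 2.16 in E 1, and at most 0.68 in every other gland. The ratio of 3' to 5' Gapdh signal, which grows as RNA degrades, was lower in E than in V by 0.73 on the log2 scale on type A (two-sided exact permutation p = 0.0286, the smallest that 4 against 4 animals allow; 0.143 after Benjamini-Hochberg adjustment over 60 comparisons of marker scores and ratios).

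Windows around the annotated start of the 3 genes on which the hormone results turn are shown so that their sequence can be read beside the values. They run from 250 bases before to 50 bases after the start, 5′ to 3′ on the gene's strand, from RefSeq on build GRCm38.p6, which holds such windows for 7 of the 10 genes. Capitals mark matches, on either strand, to the hexamer TGTTCT bound by progesterone and related receptors or to the Tcf/Lef core CTTTGA. Dact2 lies on chromosome 17, minus strand, with its window at chr17:14203782-14204081. Ndp lies on chromosome X, minus strand, with its window at chrX:16911725-16912024. Wnt5b lies on chromosome 6, minus strand, and has 3 annotated starts, with windows at chr6:119449337-119449636, chr6:119467162-119467461 and chr6:119544298-119544597.
Dact2: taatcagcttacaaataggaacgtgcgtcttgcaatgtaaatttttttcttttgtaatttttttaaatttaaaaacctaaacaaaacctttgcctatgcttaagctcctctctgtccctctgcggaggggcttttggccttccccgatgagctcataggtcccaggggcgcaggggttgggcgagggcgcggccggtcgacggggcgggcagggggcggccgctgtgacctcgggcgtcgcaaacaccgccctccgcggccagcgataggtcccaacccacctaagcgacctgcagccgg
Ndp: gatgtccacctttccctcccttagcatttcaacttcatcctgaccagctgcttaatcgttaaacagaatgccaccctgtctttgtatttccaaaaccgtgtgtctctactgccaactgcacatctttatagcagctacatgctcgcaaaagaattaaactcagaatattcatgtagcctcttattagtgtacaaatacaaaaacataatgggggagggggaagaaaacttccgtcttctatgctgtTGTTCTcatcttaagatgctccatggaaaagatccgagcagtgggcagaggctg
Wnt5b window 1: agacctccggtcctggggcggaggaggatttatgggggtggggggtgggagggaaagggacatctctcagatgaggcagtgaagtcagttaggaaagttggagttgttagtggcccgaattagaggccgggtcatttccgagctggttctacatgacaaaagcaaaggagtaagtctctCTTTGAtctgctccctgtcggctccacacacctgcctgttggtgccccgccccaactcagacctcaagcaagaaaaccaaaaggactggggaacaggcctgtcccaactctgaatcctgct
Wnt5b window 2: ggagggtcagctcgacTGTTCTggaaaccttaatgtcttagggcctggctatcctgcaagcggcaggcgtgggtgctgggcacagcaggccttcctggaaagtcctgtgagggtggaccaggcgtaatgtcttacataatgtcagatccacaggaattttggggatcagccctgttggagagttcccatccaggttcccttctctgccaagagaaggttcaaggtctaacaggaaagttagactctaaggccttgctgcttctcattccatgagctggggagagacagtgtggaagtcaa
Wnt5b window 3: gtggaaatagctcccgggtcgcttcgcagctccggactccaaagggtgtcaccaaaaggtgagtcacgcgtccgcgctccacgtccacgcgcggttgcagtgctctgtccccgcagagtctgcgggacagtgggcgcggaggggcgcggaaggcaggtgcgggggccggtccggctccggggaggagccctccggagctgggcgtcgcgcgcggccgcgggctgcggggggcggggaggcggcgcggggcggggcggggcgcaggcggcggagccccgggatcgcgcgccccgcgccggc
The Ndp window held 1 TGTTCT, starting 4 bases before the start site, and Wnt5b window 2 held 1, starting 234 bases before it. Wnt5b window 1 held 1 CTTTGA, starting 71 bases before its start. The Dact2 window and Wnt5b window 3 held neither, and none of the 9 member windows held the full palindromes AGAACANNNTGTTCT of progesterone receptor or GGTCANNNTGACC of estrogen receptor. Of all 32851 windows of the same length, 19% held TGTTCT, 16% held CTTTGA, 0.00913% held the first palindrome and 0.07% the second, so the hexamers are common and a match is a description only.

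On their leading probe sets, the one of each gene used where a gene is given 1 value, Dact2, Ndp and Wnt5b had their highest mean signal of the 5 groups in E+P. Other probe sets of each of these genes did not all share this. The leading probe sets of Wnt5a, Wnt6, Sfrp1 and Sfrp2 also had their highest mean in E+P. For Sfrp2 the mean was 259.4 in E+P and 258.6 in V. Dact2 was higher in E+P than in E glands, and Ndp was higher in E+P than in P glands, and these were the only member probe sets that passed the test among the intact glands. Limma called 1 of the 19 probe sets for E+P against E, where 0.143% of all tested probe sets were called, and 1 for E+P against P, where 0.351% were. It called 0 of 19 for E against V (0.178% of all), for P against V (0% of all), for E+P against V (0.46% of all) and for the interaction of the 2 hormones (0.0737% of all). At an unadjusted p below 0.05 these 4 comparisons held 3, 1, 5 and 4 of the 19, against 12.1%, 8.05%, 10.7% and 11.7% of all tested probe sets; E+P against E and E+P against P held 5 each, against 9.95% and 11.4%. The leading probe sets of Ndp and Wnt5b passed the brightness filter through E+P animals only, and the genes were picked with earlier results known, so the counts describe the list and support nothing about it.

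**Figure D1:**
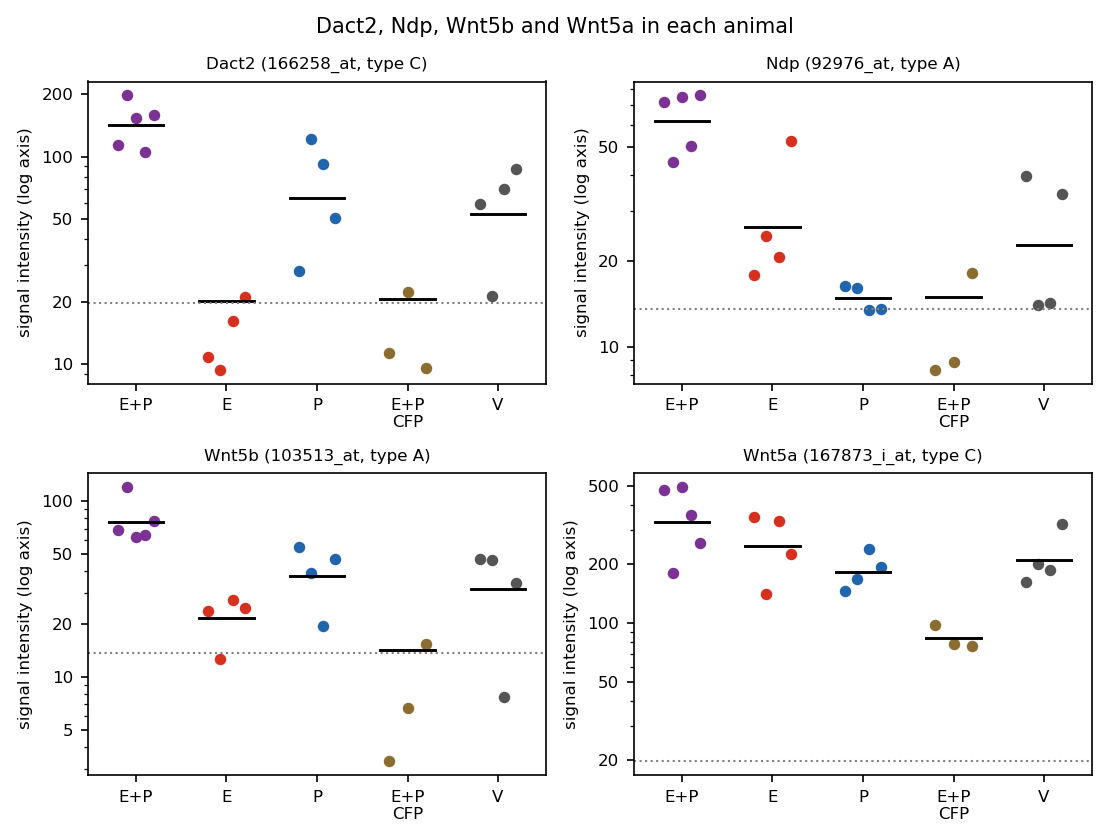
Signal intensity (log axis) of 1 probe set each of Dact2, Ndp, Wnt5b and Wnt5a in every animal, by group; bars are means of floored log2 values and dotted lines the floor. All 5 E+P animals lie at or above 105 for Dact2, above 44 for Ndp and above 62 for Wnt5b, while the fat pads lie at or near the floor for these 3.

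Among the ligands, Wnt4 gave 2 readings. Its leading probe set 166349_r_at, of a design class that relaxed the array's probe rules, read 686, 686, 342, 592 and 754 in E+P animals, 714, 937, 689 and 757 in E animals, 567, 640, 635 and 481 in P animals and 321, 576, 735 and 492 in V animals. The E animals lay in the upper part of this range, and E and V overlapped through V 3. E against V differed by 0.60 ± 0.25 (adjusted p = 0.339) and P against V by 0.18 ± 0.25 (adjusted p = 0.896), so neither passed. The dim probe set 103238_at read 15.1, 70.6, 16.0, 14.3 and 25.4 in E+P animals, 106, 22.2, 36.6 and 56.3 in E animals, 16.1, 12.4, 7.39 and 12.3 in P animals and 16.0, 11, 11.3 and 13.3 in V animals. All 4 E animals were above all V and all P animals, of which 3 of 4 in each group were under the floor. With no filter on dim probe sets, E against V was 1.73 ± 0.46 for it (adjusted p = 0.207) and P against V 0.00 ± 0.46, and neither passed.

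Wnt5a was measured by 3 tested probe sets, of which none passed in a comparison between glands. The leading one, 134046_at, read 548, 199, 291, 377 and 224 in E+P animals, 357, 24.4, 432 and 255 in E animals, 225, 205, 114 and 238 in P animals and 179, 161, 126 and 33.4 in V animals. All E+P animals were above all V animals, one of 5 member probe sets with no overlap between E+P and V (2.45% of all tested probe sets lay wholly higher). The difference between E+P and V was 1.54 ± 0.66 (adjusted p = 0.385). The other 2 probe sets, 166303_i_at and 167873_i_at, gave 0.53 ± 0.34 and 0.65 ± 0.32 for it (adjusted p = 0.644 and 0.481), with overlap. On the leading probe set E 2 and V 4 were far below the rest of their groups. E 2 was also the lowest E animal on these 2, whereas V 4 was the highest V animal on 167873_i_at, and over the 20 animals the leading probe set correlated with them at 0.71 and 0.60.

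Wnt5b, a close relative of Wnt5a, was read by 6 tested probe sets, whose values differed. The leading one, 103513_at, read 68.4, 121, 62.7, 64.0 and 77.1 in E+P animals, 23.6, 12.7, 27.6 and 24.6 in E animals, 55.2, 39.1, 19.5 and 46.8 in P animals and 46.8, 46.4, 7.71 and 34.2 in V animals. All E+P animals were above every other gland. The difference was 1.82 ± 0.40 against E (adjusted p = 0.0929), 1.02 ± 0.40 against P (adjusted p = 0.301) and 1.27 ± 0.40 against V (adjusted p = 0.198), so it did not pass against any of them. For E+P against E, with 1 animal left out, it passed in 1 of 20 fits, without V 3 (adjusted p = 0.0387). The Wnt5b signal of V 3 was under the floor. In the other fits the adjusted p reached 0.345. The log2 Gapdh ratio on type A, which holds this probe set, was higher in E+P than in E by 0.56 (two-sided exact permutation p = 0.0476, 0.190 adjusted over the 60 comparisons). Its part in the Wnt5b difference was not tested. E+P did not overlap with E for 4 of the 19 member probe sets and with P for 3, all higher in E+P (2.47% and 2.21% of all tested lay wholly higher), and Wnt5b supplied 3 and 2 of them.

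Of the other Wnt5b probe sets, 169190_f_at and 171380_f_at also had all E+P animals above all E animals. Probe set 169190_f_at read 151, 199, 179, 267 and 314 in E+P animals and 52.6, 113, 131 and 49.6 in E animals, a difference of 1.44 ± 0.41 (adjusted p = 0.218); against V it was 0.49 ± 0.41 (adjusted p = 0.746), with overlap. Probe set 171380_f_at gave a smaller difference between E+P and E, 0.83 ± 0.42 (adjusted p = 0.532). It read 184, 248, 268, 185 and 209 in E+P animals and 142, 75.8, 62.7 and 57.6 in V animals, a difference of 1.45 ± 0.42 (adjusted p = 0.146). The suffix f marks probe sets that may share probes with related sequences. The other 3, 171408_f_at, 169217_i_at and 169272_i_at, overlapped between E+P and E. Their differences there were 0.72 ± 0.56, 0.50 ± 0.62 and -0.32 ± 0.52 (adjusted p = 0.737, 0.852 and 0.899). For E+P against V they gave -0.16 ± 0.56, -0.13 ± 0.62 and -0.92 ± 0.52 (adjusted p = 0.959, 0.970 and 0.574), with overlap.

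Wnt2, which stromal cells are known to make, Wnt6 and Wnt7b passed in no comparison between glands. Wnt2 (165693_r_at) lay between 633 and 1171 in E+P animals, between 980 and 1609 in E animals, between 357 and 956 in P animals and between 659 and 1195 in V animals. Like that of Wnt4, this probe set is of the design class that relaxed the array's probe rules. Wnt7b (163340_at) lay between 128 and 275 in E+P animals and between 167 and 257 in V animals, and for E+P against V it gave -0.15 ± 0.21 (adjusted p = 0.875). Wnt6 (167096_f_at) read 44.9, 286, 69.3, 32.5 and 210.1 in E+P animals and 41.4, 20.9, 22.6 and 30.7 in E animals. E+P 2 and E+P 5 were far above the other E+P animals, and the difference from E was 1.70 ± 0.65 (adjusted p = 0.361). P 4 read 133 on this probe set. The dim Wnt6 probe set 103735_at did not share the difference from E. It lay between 15.0 and 41.6 in E+P animals and between 13.9 and 43.4 in E animals. With no filter it gave 0.08 ± 0.31 for E+P against E and -1.05 ± 0.33 for P against V (adjusted p = 0.487 for the latter).

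Ndp encodes norrin, which is no Wnt but binds the receptor Fzd4 and is known for its part in growing retinal vessels. Probe set 92976_at read 71.8, 44.2, 75.1, 50.4 and 76.0 in E+P animals, 17.9, 24.4, 20.7 and 52.6 in E animals, 16.3, 16.1, 13.5 and 13.6 in P animals and 39.8, 14.0, 14.2 and 34.2 in V animals. All E+P animals were above all P and all V animals, the P animals were at or just above the floor, and E 4 lay within the E+P range. Ndp was higher in E+P than in P by 2.06 ± 0.43 (adjusted p = 0.0413). The probe set came above the brightness filter in 3 E+P animals and in no other, so it was tested because E+P was high, and the call is no independent evidence of that; with no filter on dim probe sets the adjusted p was 0.0282, and it was up to 0.115 over all alternatives. The dim probe set 169407_i_at, read with no filter, gave 0.23 ± 0.36 for E+P against P (adjusted p = 0.930). The difference was 1.24 ± 0.43 against E (adjusted p = 0.319) and 1.44 ± 0.43 against V (adjusted p = 0.168), and neither passed. The call against P held in 9 of the 17 fits that left out 1 animal; it was lost without E 3, any one of the P animals, E+P 2, E+P 4 or E+P CFP 2 (adjusted p between 0.0509 and 0.103), and without E+P 1, 3 or 5 the probe set no longer passed the filter. Leaving out V 4, E 1 and E+P CFP 1 together, which had high lymphocyte or muscle scores or Gapdh ratios, gave an adjusted p of 0.0612. Other animals with high scores were kept in that fit, such as E 2 with a lymphocyte score of 2.10 against 1.11 in V 4. The luminal score was higher in E+P than in P by 0.91 (two-sided exact permutation p = 0.00794, the smallest that 5 against 4 animals allow; 0.143 adjusted over the 60 comparisons); its part in the Ndp difference was not tested.

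The inhibitors Sfrp1 and Sfrp2 passed in no comparison between glands. Sfrp1 (97997_at) read 92.3, 86.3, 100.4, 63.3 and 51.6 in E+P animals and 38.3, 32.6, 43.1 and 59.7 in E animals, a difference of 0.85 ± 0.47 (adjusted p = 0.581). The groups overlapped through E 4 and E+P 5. The second Sfrp1 probe set, 114303_at, lay between 166 and 203 in E+P animals and between 128 and 198 in E animals, a difference of 0.26 ± 0.29 (adjusted p = 0.83). Sfrp2 (93503_at) lay between 113 and 434 in E+P animals and between 140.2 and 420.4 in V animals, a difference of 0.01 ± 0.39 (adjusted p = 0.995).

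Dact2 gave the largest difference among the member probe sets between glands. Probe set 166258_at read 114, 197, 154, 105 and 158 in E+P animals, 10.9, 9.41, 16.1 and 21.0 in E animals, 28.2, 122, 92.3 and 50.6 in P animals and 59.3, 21.3, 69.4 and 87.3 in V animals. All E+P animals were above all E and all V animals, 3 of 4 E animals were under the floor of 19.8, and P and V spread over the space between. Dact2 was higher in E+P than in E by 2.82 ± 0.46 (adjusted p = 0.0106), a lower bound of the size, and the call held with each animal left out in turn, where the adjusted p reached at most 0.0476. It was lost with the replicate number as a block, which left the difference at 2.78 (adjusted p = 0.0505), and the size was 1.83 with the floor at the 40th percentile. E against V was -1.39 ± 0.48 (adjusted p = 0.243), with no overlap, the single such member probe set (7.51% of all tested) in that comparison. For P against V, where 0 of the 19 were free of overlap (3.85% of all tested), Dact2 gave 0.27 ± 0.48 (adjusted p = 0.924).

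The Dact2 response to progesterone was larger beside estrogen than without it by 2.55 ± 0.67, the interaction of the hormones, but this did not pass (adjusted p = 0.146). Against V the difference in E+P was 1.43 ± 0.46 (adjusted p = 0.193), and against P it was 1.17 ± 0.46 (adjusted p = 0.294). Since these comparisons share animals, their values are not independent of each other. Between E+P and E, the luminal score was higher in E+P by 0.45 (exact permutation p = 0.0556, two-sided) and the log2 Gapdh ratio on type C, which holds this probe set, by 0.50 (exact permutation p = 0.0476), at 0.208 and 0.190 adjusted over the 60 comparisons. The score of the lymphocyte and plasma cell markers averaged -0.52 in E+P and 1.05 in E animals (exact permutation p = 0.0794; 0.280 adjusted), and it averaged -0.74 in V animals. None of its 10 tested markers was called for E+P against E or E against V, where their median differences were -1.50 and 1.59. The part of these measures in the Dact2 differences was not tested.

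The second Dact2 probe set disagreed. Its suffix r marks the design class that relaxed the array's probe rules. Probe set 140879_r_at read 371, 406, 481, 409 and 421 in E+P animals and 453, 568, 508 and 491 in E animals. The groups overlapped, the difference of -0.27 ± 0.15 had the opposite sign (adjusted p = 0.567), and the 2 probe sets correlated at -0.27 over the 20 animals. The Dact2 result rests on 1 of the gene's 2 probe sets.

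**Figure D2:**
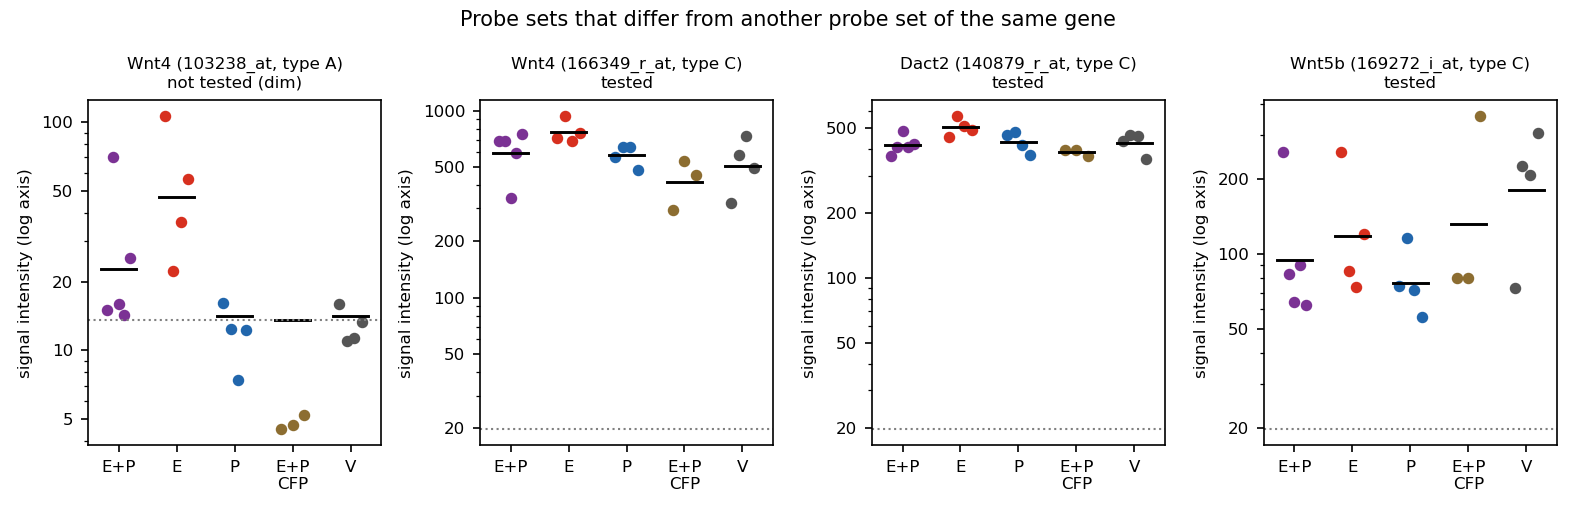
Signal intensity (log axis) in every animal of 4 probe sets whose pattern differs from another probe set of the same gene; bars are means of floored log2 values and dotted lines the floor. The dim Wnt4 probe set lies between 22.2 and 106 in E animals and at most at 16.0 in V animals, whereas Dact2 140879_r_at stays between 359.5 and 568 in all groups.

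**Figure D3:**
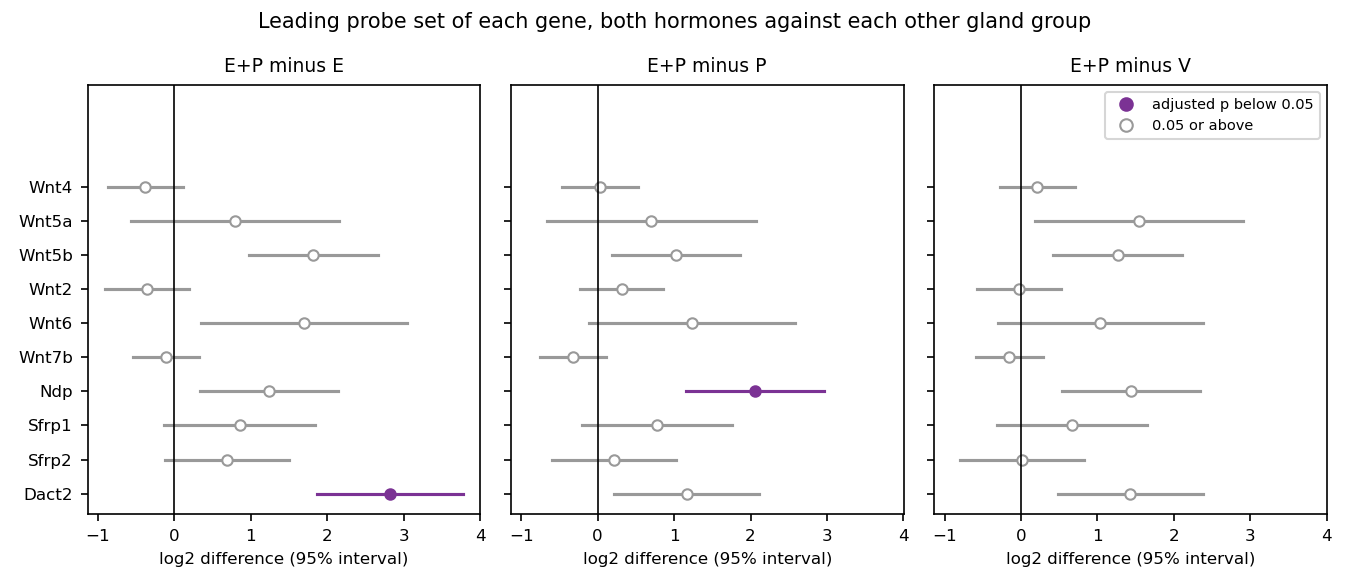
Log2 difference (with 95% interval) of the leading probe set of each of the 10 genes, E+P minus E, E+P minus P and E+P minus V; filled points have an adjusted p below 0.05. Dact2 against E, at 2.82, and Ndp against P, at 2.06, are the filled points.

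The comparison of glands with epithelium-free fat pads, both under both hormones, asks which member signals go with the epithelium. Wnt5a, Wnt5b, Ndp, Sfrp1 and Dact2 were higher in the E+P gland than in the E+P CFP fat pad, and no member was lower. Limma called 9 of the 19 probe sets higher and 0 lower, where 5.23% of all tested probe sets were called higher and 2.68% lower (7.9% in all), and 10 of the 19 lay wholly higher in the gland, against 8.36% of all tested. Several of these calls came from repeated probe sets of Wnt5a and Wnt5b. The leading probe sets of Wnt5b and Ndp were tested only because E+P animals passed the brightness filter. The counts therefore describe the list and support nothing about it. In whole tissue, fewer cells of a type and less RNA per cell cannot be told apart. Luminal and basal epithelial markers were lower in these fat pads, at 10 of 10 and 4 of 7 tested markers called. Skeletal muscle and adipocyte markers were higher, at 10 of 10 and 7 of 10. The part of these cell types in the member differences was not tested.

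Of the 3 Wnt5a probe sets, 2 passed against the fat pads. Probe set 167873_i_at read 478, 180.4, 496, 356 and 255 in E+P glands and 98.5, 78.0 and 76.1 in E+P CFP fat pads. Every gland was above every fat pad, by 1.98 ± 0.35 (adjusted p = 0.000515), and probe set 166303_i_at gave 2.07 ± 0.37 (adjusted p = 0.000738). The leading probe set 134046_at read 116, 90.5 and 24.0 in the fat pads, also without overlap. It gave 2.28 ± 0.72 (adjusted p = 0.0521), which did not pass. With 1 animal left out, it passed in 3 of 20 fits, without E 2, E 3 or V 4 (adjusted p = 0.00677, 0.0486 and 0.0355). In the other fits the adjusted p reached 0.270.

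Of the 6 Wnt5b probe sets, 4 were higher in the gland. The leading one, 103513_at, read 3.3, 6.61 and 15.4 in the fat pads, of which 2 were under the floor, and was higher in the E+P gland by 2.43 ± 0.44 (adjusted p = 0.00103). It came above the brightness filter in E+P animals only, so it was tested because E+P was high. Its call is no independent evidence of that. Probe sets 171380_f_at, 171408_f_at and 169190_f_at gave 2.33 ± 0.46, 2.09 ± 0.61 and 1.65 ± 0.44 (adjusted p = 0.0019, 0.0356 and 0.0207). The calls of the last 2 were fragile: 169190_f_at was lost without E+P 5, E+P CFP 1 or E+P CFP 2, and 171408_f_at without E+P 2, 3, 4 or 5, E+P CFP 1 or E+P CFP 2, with adjusted p up to 0.0997 and 0.181. Probe sets 169217_i_at and 169272_i_at gave -0.28 ± 0.67 and -0.48 ± 0.57 (adjusted p = 0.875 and 0.714).

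The leading probe sets of Ndp and Dact2 were at or near the floor in the fat pads, but not only there. Ndp read 13.5 to 16.3 in P glands and Dact2 read 9.41 to 21.0 in E glands, which hold epithelium. Ndp (92976_at) read 8.31, 8.81 and 18.1 in the fat pads, against 44.2 to 76.0 in E+P glands given above, and was higher in the gland by 2.05 ± 0.47 (adjusted p = 0.00805). This call held in the 17 fits without 1 animal that could test it and was lost without V 4, E 1 and E+P CFP 1 together (adjusted p = 0.0519), and its size was 0.76 with the floor at the 40th percentile. The probe set came above the brightness filter in E+P animals only, so this call is no independent evidence that E+P was high. The dim Ndp probe set 169407_i_at read 25.7, 32.8 and 69.4 in the fat pads and gave -0.33 ± 0.40 with no filter (adjusted p = 0.805). Dact2 (166258_at) read 11.3, 22.3 and 9.60 in the fat pads and was higher in the gland by 2.79 ± 0.50 (adjusted p = 0.000662). Both leading probe sets had 2 of 3 fat pads at the floor, so both sizes are lower bounds. The second Dact2 probe set, 140879_r_at, lay between 371 and 395 in the fat pads.

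Sfrp1 differed on 1 of its 2 probe sets. Probe set 114303_at read 197, 166, 203, 175 and 191 in E+P glands and 128, 39.5 and 109 in the fat pads, a difference of 1.18 ± 0.32 (adjusted p = 0.0218). E+P CFP 2 was far below the other fat pads, and without it the difference was 0.65 (adjusted p = 0.209). Probe set 97997_at read 36.5, 22.6 and 27.7 in the fat pads, below every E+P gland, with 1.43 ± 0.51 (adjusted p = 0.101). With 1 animal left out, it passed in 1 of 20 fits, without V 3 (adjusted p = 0.0264). In the other fits the adjusted p reached 0.265.

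The remaining members did not pass against the fat pads. Wnt2 (165693_r_at) gave 0.00 ± 0.29, with a 95% interval from -0.60 to 0.60, and Wnt7b (163340_at) gave 0.03 ± 0.23, with an interval from -0.44 to 0.50. Wnt6 gave 0.28 ± 0.71, Wnt4 0.51 ± 0.26, Sfrp2 0.89 ± 0.43 and the second Dact2 probe set 0.11 ± 0.16 (adjusted p = 0.883, 0.278, 0.247 and 0.781). Wnt2 lay between 633 and 1171 in E+P glands and at 1018, 1127 and 624 in the fat pads, so the 2 groups overlapped almost wholly. The dim Wnt2 probe set 116748_at lay between 37.2 and 73.0 in E+P glands and at 80.7, 72.0 and 91.1 in the fat pads, and with no filter it gave -0.65 ± 0.21 (adjusted p = 0.103).

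**Figure D4:**
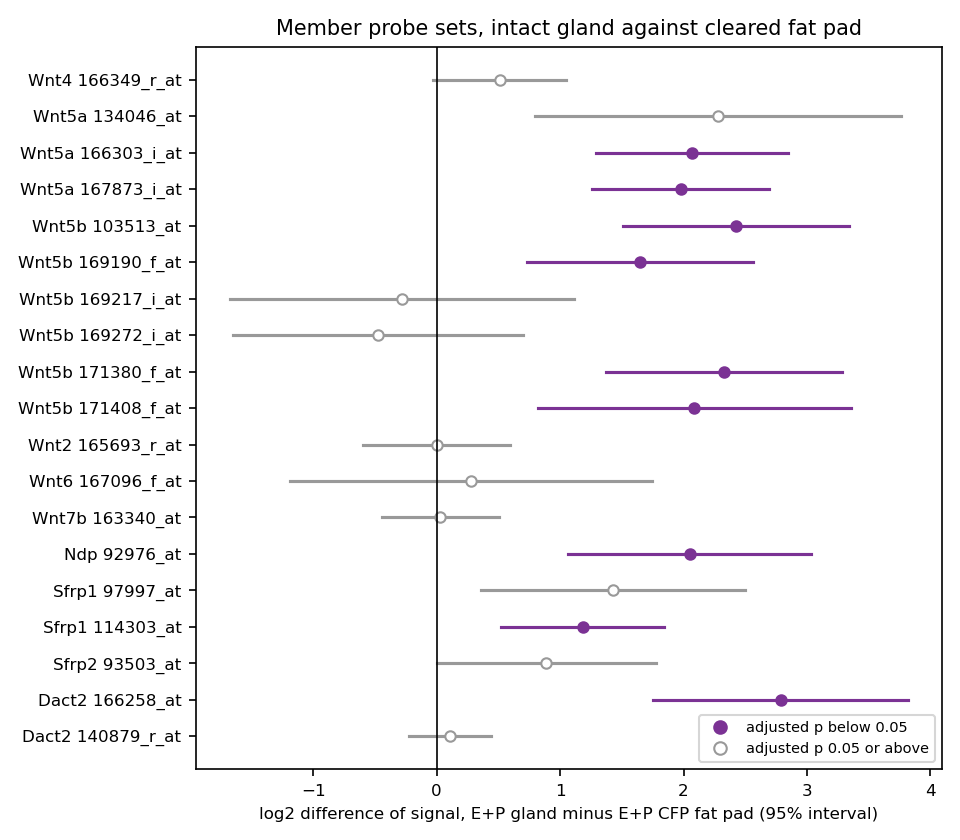
Log2 difference (with 95% interval) of the 19 tested member probe sets, E+P gland minus E+P CFP fat pad; filled points have an adjusted p below 0.05. The 9 filled points lie between 1.18 and 2.79, and probe sets of 1 gene differ for Wnt5b and Dact2.

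The rest of the pathway was read through 94 further genes, of which 63 had a tested probe set, sorted by role. Some receptors and some targets, but not Axin2, were called higher in the gland than in the fat pad. No gene of these lists passed between glands. Limma called 0 of 63 in each of the hormone comparisons and the interaction, against 0.204%, 0%, 0.646%, 0.229%, 0.507% and 0.0736% of all 12232 genes in the order E against V, P against V, E+P against V, then E+P against E, E+P against P and the interaction. At an unadjusted p below 0.05 the same comparisons held 8, 4, 11, 13, 11 and 8 of the 63, against 12.5%, 7.6%, 12.3%, 10.6%, 12.8% and 11.7% of all genes. The median difference of the 63 genes for E+P against V was 0.19, against 0.02 over all genes.

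Axin2, the usual readout of beta-catenin signalling, read 180.0, 252, 179, 196 and 267 in E+P animals and 64.3, 144, 88.5 and 159 in V animals. All E+P animals were above all V animals, with a difference of 0.99 ± 0.33 that did not pass (adjusted p = 0.225). The luminal score was also higher in E+P than in V, by 0.60 (two-sided exact permutation p = 0.0159, 0.143 adjusted over the 60 comparisons). Its part in this difference, and in those of Wnt5a and Wnt5b between E+P and V, was not tested. The other pathway genes named by rule were the coreceptor Lrp6, the receptors Fzd4 and Ror2 and the transcription factor Lef1, which gave -0.32 ± 0.11, -0.03 ± 0.16, 0.34 ± 0.24 and 0.27 ± 0.29 for E+P against V (adjusted p = 0.220, 0.972, 0.678 and 0.817). For Lrp6 all E+P animals (313 to 409) and all E animals (327 to 403) were below all V animals (419 to 498). Lrp5, Tnfsf11 and Pgr were too dim to be tested.

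Against the fat pads, 11 of the 63 pathway genes were higher in the E+P gland and 1 was lower, where 6.91% of all genes were called higher and 3.54% lower (10.4% in all). By list, 4 of 16 receptors, 4 of 8 targets, 2 of 11 other inhibitors and 1 of 11 nuclear factors were higher, and 0 of 3 other ligands, 0 of 3 secretion genes and 0 of 11 cytoplasmic genes. Prom1, a surface protein of epithelial cells placed in the target list, read 337, 137, 259, 245 and 175 in E+P glands and 26.7, 30.7 and 22.9 in the fat pads, a difference of 3.05 ± 0.26 (adjusted p = 6.06e-08). The receptor Fzd7 was higher by 1.89 ± 0.26 (adjusted p = 4.01e-05), the R-spondin receptor Lgr6 by 1.60 ± 0.25 (adjusted p = 0.000148) and the cyclin Ccnd1 by 1.59 ± 0.22 (adjusted p = 4.47e-05). The 1 gene that was lower was Apcdd1, a membrane inhibitor of the pathway, at -0.69 ± 0.18 (adjusted p = 0.0172), which was named after its value was seen. The other calls were the receptors Ptk7 and Fzd6, the inhibitors Dkk3 and Rnf43, the corepressor Tle3 and the targets Myc and Id2, between 0.50 and 2.14. Axin2 and Lef1 did not pass against the fat pads, at 0.47 ± 0.36 and 0.21 ± 0.32 (adjusted p = 0.533 and 0.789). The luminal markers given above differ between the same samples, and their part was not tested.

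**Figure D5:**
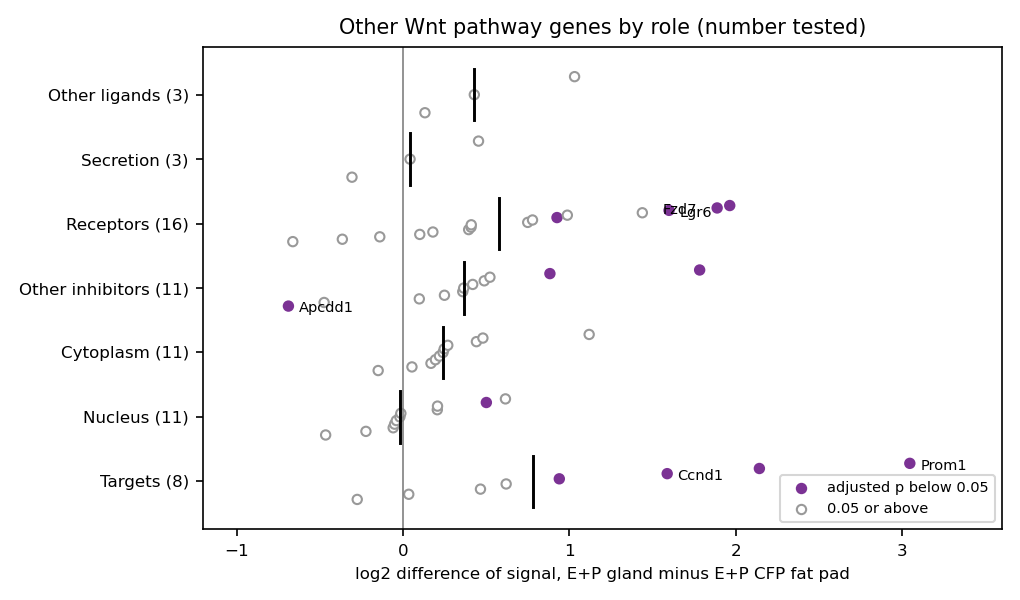
Log2 difference of the 63 tested pathway genes, E+P gland minus E+P CFP fat pad, by role with the number tested; bars are list medians and filled points have an adjusted p below 0.05. Prom1 lies at 3.05, and the single filled point below 0 is Apcdd1.

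Over the 20 animals, Wnt5b (103513_at) and Sfrp1 (97997_at) varied together more than other members did on array type A, with a Pearson correlation of 0.82, while Wnt5b and Ndp correlated at 0.62, Ndp and Sfrp1 at 0.61, and Sfrp2 with these at 0.05 to 0.24. On type C, Dact2 (166258_at) correlated with the 5 Wnt5b probe sets there at -0.18 to 0.78, highest with 169190_f_at, with which the second Dact2 probe set correlated at -0.18. These are descriptions over animals that share group, tissue make-up and array, with the fat pads apart from the glands. Among genes on the same array type, the closest patterns to Wnt5b were those of Gab1, Col17a1 and Lamb3 (0.88, 0.87 and 0.87), of which the last 2 encode epithelial adhesion proteins. The closest to Ndp were Prkab1, Ckap2 and Col7a1 (0.87, 0.79 and 0.79), and the closest to Sfrp1 were Jup, Prc1 and Spsb2 (0.91, 0.79 and 0.78). Sfrp2 was closest to the matrix genes Mfap5, Col5a1 and Fstl1 (0.82, 0.82 and 0.79). Dact2 was closest to Amer1, Ddias and Gm15867, at 0.73, 0.72 and 0.72, and Wnt5a to Plek2, Gip and Rpl38, at 0.74, 0.69 and 0.69. The closest genes to Wnt4, Wnt2, Wnt6 and Wnt7b were Mapk4, Fbxo44, 4930405A21Rik and Camk2n2, at 0.71, 0.65, 0.76 and 0.70.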

How the data were processed

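Total RNA was hybridised to 3 Affymetrix array types (60 arrays), per the labels' protocols. The authors deposited linear signal intensity values from MAS5, a tool named in the submitters' processing notes without version or settings. The arrays had nearly equal trimmed means as deposited. Arrays of the same group and replicate number were taken as 1 animal, which gave 20 animals, although the labels do not state this join. Each array was scaled to the common 2% trimmed mean of its type, floored at the 25th percentile and turned to log2. Probe sets above the 50th percentile in at least 3 animals were tested (23062 of 36899), naming only those with 1 gene symbol in the platform annotation.

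Limma 3.58.1 (R 4.3.3) fitted 5 group means per array type, with an intensity trend, and 7 two-sided comparisons. The fit was tried on simulated data for E against V, E+P against V and E+P against E+P CFP, not for the other comparisons. Benjamini-Hochberg adjustment ran over all tested probe sets, with a threshold of 0.05. A gene's leading probe set came from type A if possible, else B, else C, preferring plain names over suffixed ones and then the brightest. Text genes were every member probe set, up to 4 pathway genes with the smallest adjusted p per comparison, a set of 8 fixed names and the 3 genes most like each member. Alternatives were other scalings, floors, filters and variance models, array weights, a replicate block, fits on the compared groups, and leaving out animals. The members, lists and alternatives were chosen with earlier results of these data known. The number of arrays limits precision.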

Additional observations from a re-analysis of the deposited data

Results flagged for a closer look

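In 3 of 76 groups of 4 or 5 animals, 1 animal lay far from the others by Dixon's test on floored log2 values, which chance gives in about 1 of 20 groups. Wnt5b (169272_i_at) read 255.3 in E+P 1, against 62.5 to 90.1 in the other E+P animals. Wnt2 (165693_r_at) read 357.4 in P 3, against 842 to 956 in the other P animals. Dact2 (166258_at) read 21.02 in E 4, against 9.41 to 16.1 in the other E animals, which were all under the floor and set equal to it. On log2 values as read, the gap of E 4 was 0.33 of the range of the group, so E 4 does not lie far from the others there; the call for E+P against E held without E 4.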

How the results depend on the processing

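No member value that passed in the main fit or in an alternative changed sign between them. Of 133 member values (19 probe sets in 7 comparisons), 11 passed, and 5 of these passed under every alternative that tested them and with every animal left out, of which Wnt5b (103513_at) was not tested under the filter on at least 8 animals; 4 others passed under at least 1 of them. For E+P against V, a floor at the 40th percentile gave 1 called member probe set in place of 0. For E+P against E, that floor, no intensity trend and array weights each gave 2 in place of 1. Deviations of animals with the same replicate number correlated at 0.0195, 0.013 and -0.00354 on average on types A, B and C. On type A the pairs ranged from -0.334 to 0.224, and 10 of 36 were above 0.1. These averages cannot show that the numbers carry no pairing. With the replicate block, E+P against E and E+P against P gave 0, and E+P against E+P CFP gave 7. For E+P against P, median scaling, floors at the 10th and 40th percentile, a filter on at least 8 animals, array weights, and leaving out V 4, E 1 and E+P CFP 1 together also gave 0 in place of 1. With 1 animal left out, E+P against E gave 1 to 2 calls, E+P against P 0 to 1 and E+P against E+P CFP 6 to 10, and the other comparisons gave 0. The causes were not tested. Dim probe sets near the floor limit what can be seen, and values under it have no order. Over all probe sets, alternatives and animals left out, calls ranged from 11 to 282 for E against V, 0 to 4 for P against V, 32 to 210 for E+P against V, 2 to 73 for E+P against E, 19 to 123 for E+P against P, 10 to 48 for the interaction and 1057 to 2053 for E+P against E+P CFP.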
